A study of Mus musculus with 4 samples.

Results

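Gdf15 and 8 further genes for secreted or cell-surface proteins tied to stress and senescence (Plaur, Plau, Igfbp3, Igfbp4, Igfbp5, Igfbp7, Thbs1 and Timp1) were read in endothelial cells from mouse heart. They were chosen by name, and all 9 symbols were found among the 24346 genes of the deposited table. The cells were sorted by flow cytometry from young mice on a C57BL/6 background and were not cultured. Of the 4 libraries, 2 carry the genotype label ECp53KO (ECp53KO_170 and ECp53KO_172), taken here as loss of p53 from endothelial cells because the series concerns endothelial p53, and 2 are wild type (Ctrl_178 and Ctrl_182). The sources used here leave unstated the age in weeks, the driver of the deletion, the deleted exons and the number of mice behind each library, so p-values measure the spread between these libraries alone, which may be technical. Values per library always give ECp53KO_170 before ECp53KO_172 and Ctrl_178 before Ctrl_182.

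GDF15 is a divergent member of the TGF-beta family that cells release under stress and that acts through the receptor GFRAL in the hindbrain, and its gene is a known target of p53 and of the ATF4 and CHOP stress factors. The urokinase PLAU and its membrane-anchored receptor PLAUR start the conversion of plasminogen to plasmin at the cell surface. IGF binding proteins hold insulin-like growth factors in the extracellular space, thrombospondin-1 (THBS1) restrains the growth of vessels through CD36 and CD47, and TIMP1 inhibits matrix metalloproteinases. Several of these proteins belong to the mixture that senescent cells release, known as the senescence-associated secretory phenotype.

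Promoter sequence is shown for Gdf15 because it was the gene of the 9 with the largest difference between the groups, and 3 short stretches are shown for contrast. RefSeq windows on GRCm38.p6, running from 250 bases before to 50 bases after a gene's start, were at hand for 7 of the 9 genes (8 windows, with 2 starts for Gdf15). Each was searched for the p53 half-site consensus, for CATG, the central letters of many such half-sites, and for TGANTCA, the binding motif of AP-1. All 3 motifs read the same on both strands, and a half-site can contain a CATG. In the first line, the 250 bases before the upstream start of Gdf15 (chr8:70632457-70632706, minus strand), capitals mark CATG. In the lines for Cdkn1a (chr17:29090918-29090947, plus strand) and Ccng1 (chr11:40755452-40755481, minus strand), known p53 targets, capitals mark a half-site, and in the line for Plaur (chr7:24462402-24462431, plus strand) they mark the AP-1 motif.
Gdf15: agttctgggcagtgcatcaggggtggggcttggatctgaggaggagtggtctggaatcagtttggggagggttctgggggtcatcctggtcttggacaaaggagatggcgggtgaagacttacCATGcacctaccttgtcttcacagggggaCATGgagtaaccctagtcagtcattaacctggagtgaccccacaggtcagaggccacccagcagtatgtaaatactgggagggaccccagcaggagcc
Cdkn1a: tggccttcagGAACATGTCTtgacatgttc
Ccng1: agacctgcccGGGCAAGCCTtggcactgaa
Plaur: aacccctggagcTGACTCActctttagcaa

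None of the 8 windows of these genes held a full p53 half-site, which 8.36% of all 32851 promoter windows held. Among 9 other p53 targets used for comparison, 7 had a window and 4 of those (Cdkn1a, Mdm2, Bax and Ccng1) held one. CATG occurred in windows of 5 of the 7 genes (Gdf15, Plaur, Igfbp5, Igfbp7 and Timp1) and in 61.1% of all windows. TGANTCA occurred in Plaur alone of the 7 and in 7.81% of all windows. These are matches of letters within a short window and say nothing of binding there or elsewhere.

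Levels are FPKM as deposited, that is, fragments scaled by transcript length and sequencing depth, so they can be set side by side between genes. Depth, estimated from the value that 1 fragment takes on long, weakly expressed transcripts, was about 9800000 to 11500000 fragments in 3 libraries and 22500000 in Ctrl_182. Endothelial identity was plain in every library: 8 defining genes summed to 5360 and 4816 FPKM in ECp53KO and to 4715 and 4494 FPKM in Ctrl. Of the 8, 4 were higher and 1 lower without overlap between the groups, where 19.1% and 16.8% of all tested genes were. Cdh5 (VE-cadherin) stood at 958 to 1098 FPKM and Egfl7 at 847 to 1132 FPKM. The pan-leukocyte gene Ptprc stood at 0 to 0.108 FPKM, and 8 fibroblast genes, Dcn and Pdgfra the most abundant, summed to 29.04 to 32.3 FPKM. Mesothelial genes, mostly Wt1 and then Krt19, summed to 17.3 to 31.0 FPKM. Of the 5 listed, Wt1 alone averaged 1 FPKM or more, and 3 were at 0 in each ECp53KO library and 2 in each control. Cardiomyocyte genes, led by Myl2 and Mb, summed to 418 FPKM in ECp53KO_170 against 206 to 224 FPKM in the other 3 libraries. Erythroid genes, led by Hbb-b1 and Hba-a1, were higher in both ECp53KO libraries (sums of 315 and 85.3 FPKM) than in the controls (59.9 and 33.4 FPKM). All 4 tested genes of this list were higher without overlap, against 19.1% of all tested genes (10.8% after rescaling to the same total). Trp53 itself stood at 4.41 and 2.45 FPKM in ECp53KO, versus 52.1 and 28.8 FPKM in Ctrl. In each group 1 library held Xist RNA (23.1 FPKM in ECp53KO_172, 23.9 FPKM in Ctrl_182) and the other was near 0. Timp1 is X-linked, and a link of its level to Xist status was not tested.

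The 9 genes covered a wide range of levels. Igfbp7 was the most abundant, at a mean of 956 FPKM over the 4 libraries (747 to 1311 FPKM), which placed it at rank 95 of the 11332 genes that averaged 1 FPKM or more. Igfbp3 followed at 165 FPKM (117 to 190 FPKM, rank 553). Igfbp4 (26.5 FPKM), Plaur (21.6 FPKM) and Igfbp5 (20.5 FPKM) came next, with ranges of 23.9 to 28.9, 14.7 to 28.2 and 12.0 to 26.1 FPKM that overlapped one another. Plau (5.55 FPKM) and Gdf15, which ran from 0 to 13.8 FPKM, were low and likewise overlapped. Thbs1 averaged 1.52 FPKM and Timp1, the lowest, did not exceed 0.959 FPKM in any library.

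**Figure D1:**
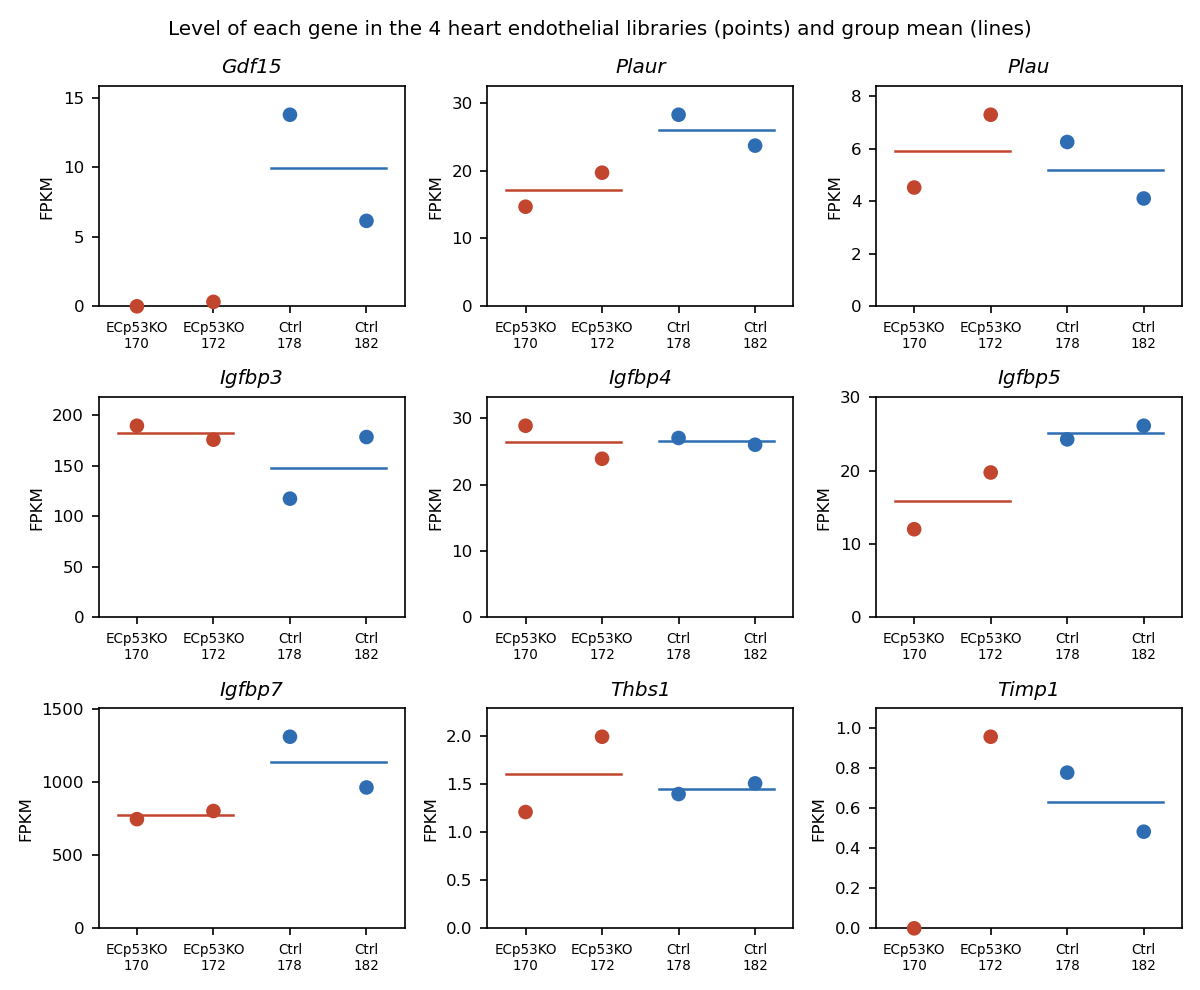
FPKM (linear axes from 0) of each of the 9 genes in the 4 libraries, red for ECp53KO and blue for Ctrl, with a line at the group mean where no library of that group is listed at 0. Gdf15 sits at 0 and 0.319 FPKM in ECp53KO, versus 13.8 and 6.14 FPKM in Ctrl, while the groups of Plau, Igfbp3, Igfbp4, Thbs1 and Timp1 overlap.

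Of the 9 genes, Gdf15, Plaur, Igfbp5 and Igfbp7 did not overlap between the groups, with the ECp53KO values the lower ones, and none was higher without overlap. Over all 11332 tested genes, 16.8% were lower and 19.1% higher without overlap. With the columns rescaled to the same total these shares were 22.3% and 10.8%, and of the genes described here 5 were lower and 0 higher. Differences were tested with limma on log2(FPKM + 1), a scale that understates the change of low genes. Timp1 was under the filter of 1 FPKM and was not tested, and Gdf15 passed the filter only through its control values. With Benjamini-Hochberg adjustment over all tested genes, 0 of the 8 tested genes passed an adjusted p of 0.05 in either direction, where 0.0882% of all genes passed as lower and 0.0265% as higher. At an unadjusted p under 0.05, limma gave 3 lower (Gdf15, Plaur and Igfbp5) and 0 higher, against 2.82% and 1.97% of all genes. The median log2 fold change of the 8 genes was -0.27, against 0.01 over all tested genes.

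Gdf15 (chromosome 8, 70629393 to 70632470, GRCm38), the stress cytokine, was close to absent from the ECp53KO libraries. ECp53KO_170 was listed at 0 FPKM and ECp53KO_172 at 0.319 FPKM, while Ctrl_178 reached 13.8 FPKM and Ctrl_182 6.14 FPKM. The lower control value was 19.3 times the higher ECp53KO value. Set against the estimated depth and the longest coding transcript (1545 nucleotides), these levels came to about 4.8 fragments in ECp53KO_172 and to about 230 and 210 fragments in Ctrl_178 and Ctrl_182. A listed 0 can also be a failed estimate in such a table, since the listed values of the ribosomal protein gene Rpl26 ran from 0.000682 to 22 FPKM, so no mean of the ECp53KO values is given. In bulk RNA, fewer cells that express a gene and less RNA per cell cannot be told apart.

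The log2 fold change of Gdf15 was -3.16 ± 0.40 (SE), with a 95% confidence interval of -4.18 to -2.14. It did not pass over all genes (limma adjusted p = 0.25, unadjusted p = 0.000463). When loci of small RNAs were left out of the fit, Gdf15 fell at the same fold change (limma adjusted p = 0.02), as it did with robust shrinkage (0.0411). In that fit without small RNA loci, 0.036% of 11103 genes passed as lower and 0.027% as higher. With a term added for the libraries that held Xist RNA, the limma adjusted p of Gdf15 was 0.396 with all loci and 0.00179 without small RNA loci. Over the settings that used all 4 libraries it ran from 0.00179 to 0.871 by limma. Only Trp53, at -3.20, had a more negative fold change among the 11103 tested genes that are not small RNA loci.

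The genes whose values over the 4 libraries lay nearest to those of Gdf15 were Trp53, Phlda3, Sesn2, Eda2r and Ltc4s, in that order. Nearness was the Euclidean distance between log2(FPKM + 1) values centred on each gene's own mean, and it rests on 4 libraries only. The distances were 0.76 for Trp53, 0.97 for Phlda3 (an inhibitor of AKT signalling), 1.45 for Sesn2 (a stress-induced regulator of mTORC1), 1.48 for Eda2r (a receptor of the TNF family) and 1.49 for Ltc4s (leukotriene C4 synthase). Ltc4s, on chromosome 11 as is Trp53, stood at 4.03 and 8.04 FPKM in the ECp53KO pair, versus 27.4 and 16.6 FPKM in the control pair (log2 fold change -1.73 ± 0.37, limma adjusted p = 0.864, and 0.327 without small RNA loci). All 5 were higher in Ctrl_178 than in Ctrl_182, as Gdf15 was. This likeness follows largely from choosing them by nearness on these same values. The control values of Gdf15 differed 2.24-fold, beside 1.81-fold for Trp53. Among the other genes described here, Igfbp5, Plaur and Igfbp7 ranked 246, 277 and 315 of 11102 genes in nearness to Gdf15, and Igfbp3 ranked 10509. Their distances were 2.63, 2.65, 2.67 and 3.70, well above those of the nearest 5. The values were not scaled, so these ranks largely restate each gene's own fold change.

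**Figure D2:**
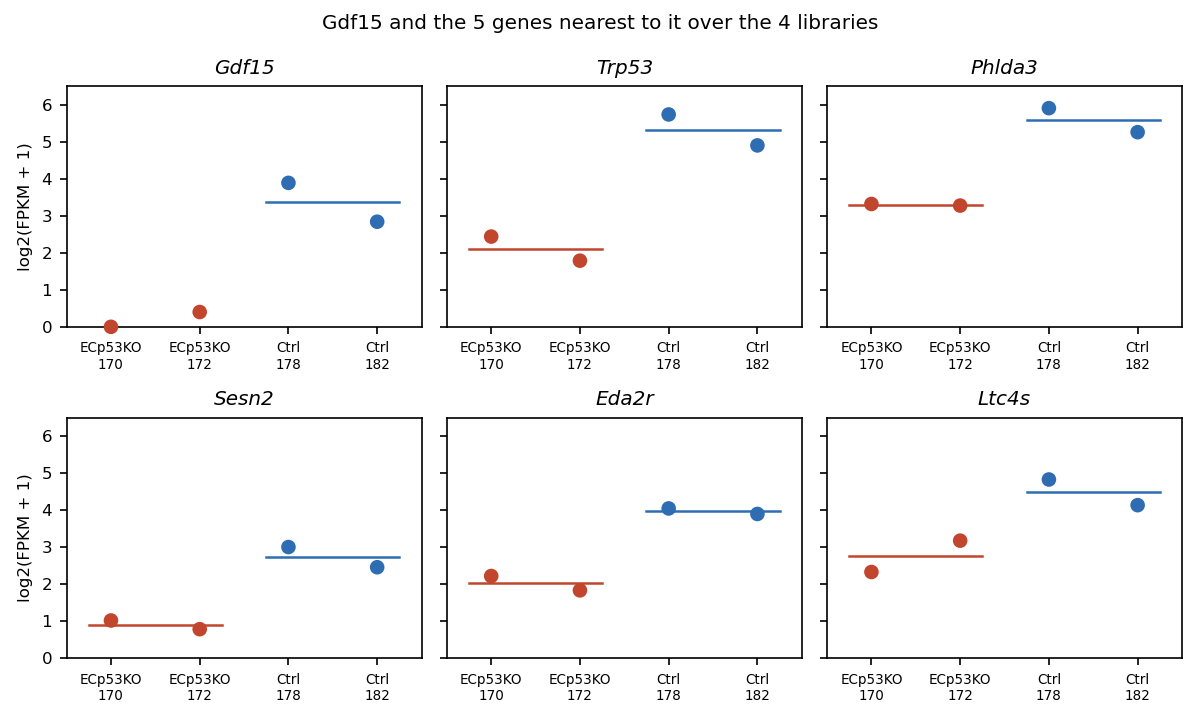
log2(FPKM + 1) of Gdf15 and of the 5 genes nearest to it, by library, red for ECp53KO and blue for Ctrl, with group means as lines except where a library is listed at 0. In each panel both ECp53KO libraries lie below both controls, and Ctrl_178 lies above Ctrl_182, a likeness for which the 5 genes were chosen.

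Factors other than p53 that are known to switch on Gdf15 had smaller RNA differences between the groups than Trp53. Their part in the lower Gdf15 was not tested. ATF4 and ATF3 are transcription factors of the integrated stress response, and CHOP, the product of Ddit3, acts beside them. Atf4 stood at 242 and 163 FPKM in the ECp53KO pair, versus 192 and 231 FPKM in the control pair. Atf3 stood at 214, 194, 199 and 218 FPKM in the same order, so the groups of both genes overlapped. Ddit3 was higher without overlap in ECp53KO, at 32.8 ± 2.95 against 24.8 ± 1.77 FPKM (SD, n = 2 each). The log2 fold change of Ddit3 was 0.39 ± 0.16 (SE, limma adjusted p = 0.864). Egr1 stood at 186 and 253 against 287 and 298 FPKM, and Cebpb at 3.22 and 2.56 against 5.16 and 3.74 FPKM. Both were lower in ECp53KO without overlap, where 16.8% of all tested genes were lower and 19.1% higher without overlap. Of the 6 factors listed, Trp53 alone had an unadjusted limma p under 0.05, where 2.82% of all tested genes were lower and 1.97% higher. On the receiving side, Gfral was listed at 0 in every library and its co-receptor gene Ret stood at 1.04 to 1.68 FPKM. Furin, whose product cleaves the GDF15 precursor, was the most abundant of the processing genes, at 32.6 and 44.7 against 43.1 and 46.6 FPKM. Pcsk5 (3.83 to 7.03 FPKM) and Pcsk6 (2.19 to 2.86 FPKM) encode related convertases.

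Plaur (chromosome 7, 24460937 to 24475970), the urokinase receptor, was lower in ECp53KO, while Plau (chromosome 14, 20836662 to 20843388), its ligand, overlapped between the groups. Plaur stood at 14.7 and 19.7 FPKM in the ECp53KO pair, versus 28.2 and 23.7 FPKM in the control pair, means of 17.2 ± 3.55 and 26.0 ± 3.22 FPKM (SD, n = 2 each), and the control mean was 1.51 times as high. The log2 fold change of Plaur was -0.58 ± 0.20 (SE, 95% confidence interval -1.09 to -0.06, limma adjusted p = 0.864), and it was -0.38 without ECp53KO_170. With the Xist term its unadjusted limma p was 0.0530. Plau stood at 4.53, 7.30, 6.26 and 4.11 FPKM, so the highest and the lowest value were 1 ECp53KO and 1 control library. Its log2 fold change was 0.15 ± 0.29, with an interval of -0.59 to 0.90 (limma adjusted p = 0.933), and the sign turned without ECp53KO_172 (-0.14) or Ctrl_182 (-0.10). The ratio of Plaur to Plau within a library was 3.24 and 2.70 in ECp53KO and 4.51 and 5.76 in Ctrl.

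Around them, the plasminogen system was read in 8 of 12 listed genes, and 0 passed in either direction over all genes, with 0 at an unadjusted limma p under 0.05 and a median log2 fold change of 0.01. Plat, which encodes the tissue plasminogen activator, was the more abundant activator gene, at 60.7 and 68.6 FPKM in ECp53KO, versus 58.5 and 61.2 FPKM in Ctrl. The plasminogen-binding pair S100a10 (587 to 693 FPKM) and Anxa2 (342 to 502 FPKM) stood highest in this list. Vtn (vitronectin), with the smallest p of the list, averaged 4.71 ± 1.93 against 3.19 ± 0.31 FPKM (limma adjusted p = 0.864).

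Among the IGF binding proteins, Igfbp7 and Igfbp5 were lower in ECp53KO without overlap, and Igfbp3 and Igfbp4 overlapped. Igfbp7 (chromosome 5, 77349240 to 77408045), a secreted protein of vessel walls that binds IGFs only weakly, stood at 747 and 803 FPKM in the ECp53KO pair, versus 1311 and 964 FPKM in the control pair. The means were 775 ± 39.4 and 1137 ± 246 FPKM (SD, n = 2 each). The log2 fold change was -0.54 ± 0.28, with an interval of -1.25 to 0.17 (limma adjusted p = 0.864, unadjusted p = 0.111), and it was -0.32 without Ctrl_178. Igfbp5 (chromosome 1, 72858065 to 72874865) stood at 12.0 and 19.7 FPKM against 24.3 and 26.1 FPKM, means of 15.9 ± 5.47 and 25.2 ± 1.32 FPKM. Its log2 fold change was -0.67 ± 0.25, with an interval of -1.32 to -0.02 (limma adjusted p = 0.864). ECp53KO_170 held the lowest Igfbp5 value, and without it the log2 fold change was -0.34, while without ECp53KO_172 it was -1.01.

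Igfbp3 (chromosome 11, 7206086 to 7215498), the main carrier of IGFs in blood, stood at 190 and 176 FPKM in ECp53KO, versus 117 and 178.5 FPKM in Ctrl. Only Ctrl_178 stood apart, and the log2 fold change of 0.33 ± 0.25 (interval -0.30 to 0.97, limma adjusted p = 0.864) was 0.03 without that library and 0.63 without Ctrl_182. Igfbp4 (chromosome 11, 99040005 to 99052655), an inhibitory binding protein, stood at 28.9 and 23.9 FPKM against 27.0 and 26.0 FPKM. With a log2 fold change of -0.01 ± 0.16 and an interval of -0.43 to 0.40 (limma adjusted p = 0.989), its difference was the smallest of the 8 tested genes, and its sign turned without ECp53KO_172 (0.12) or Ctrl_178 (0.01).

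Igfbp7 took most of the family's summed level in every library. Of the summed FPKM of Igfbp1 to Igfbp7, its share was 76.2% and 78.3% in ECp53KO versus 88.3% and 80.5% in Ctrl, and that of Igfbp3 was 19.4% and 17.2% against 7.92% and 14.9%. Both shares differed without overlap between the groups, and neither was tested. These genes make up most of the sum, so their shares are not independent, and the FPKM of Igfbp3 itself overlapped. The ratio of Igfbp7 to Igfbp3 was 3.94 and 4.57 in ECp53KO and 11.2 and 5.40 in Ctrl, so Ctrl_178 stood apart from the other 3 libraries. Igfbp6 stood at 2.18 and 2.67 against 4.14 and 3.12 FPKM (limma adjusted p = 0.864), and Igfbp1 and Igfbp2 did not exceed 0.0644 and 0.290 FPKM.

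**Figure D3:**
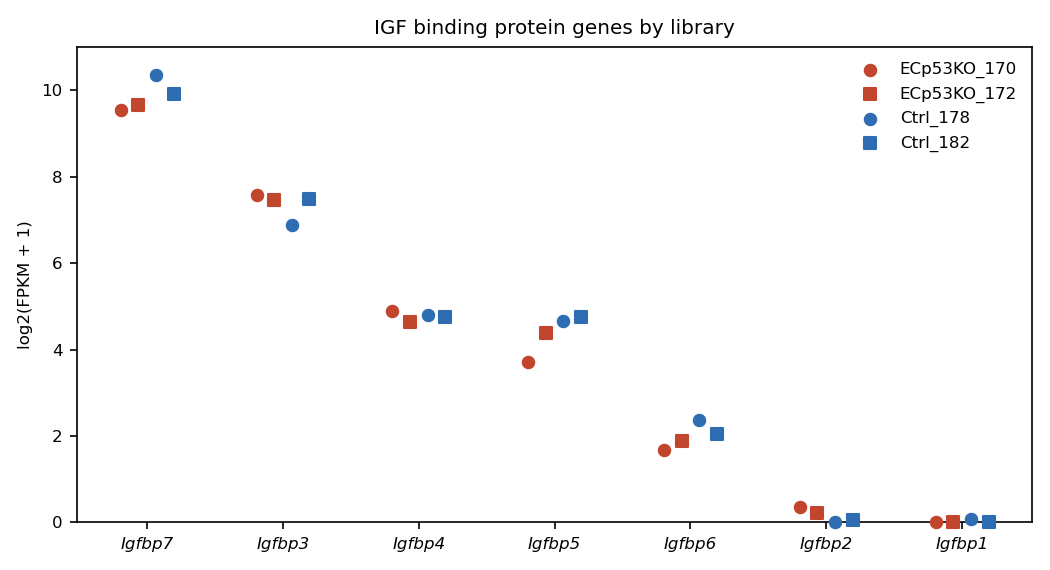
log2(FPKM + 1) of the 7 IGF binding protein genes in each library, red for ECp53KO and blue for Ctrl, ordered by level. Igfbp7 stands highest in every library, and Igfbp4 and Igfbp5 lie at like levels except in ECp53KO_170, where Igfbp5 is at 12.0 FPKM.

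Most tested genes of the wider IGF axis had a negative fold change, as Igfbp5 and Igfbp7 did. Of 16 listed genes 8 were tested, 7 of them with a negative fold change (48.3% of all tested genes had one, and 64.8% after rescaling to the same total), and the median was -0.49. By limma 0 passed over all genes, and 1 was lower at an unadjusted p under 0.05, against 2.82% of all tested genes. That gene, Stc1, encodes stanniocalcin-1, a secreted inhibitor of the IGFBP-cleaving protease PAPP-A, and averaged 8.27 ± 0.151 FPKM in ECp53KO and 14.4 ± 0.606 FPKM in Ctrl (SD, n = 2 each). The log2 fold change of Stc1 was -0.73 ± 0.15 (SE, limma adjusted p = 0.864). Igf2, the more abundant ligand gene, stood at 17.2 and 32.1 against 41.9 and 31.4 FPKM, and Igf2r, the gene of its clearance receptor, at 16.5 and 28.6 against 36.2 and 29.4 FPKM. ECp53KO_170 held the lowest value of both, and longer transcripts read lower in that library, as given below. With the length trend removed, the log2 fold change moved from -0.57 to -0.44 for Igf2r (8887 nucleotides) and from -0.60 to -0.56 for Igf2 (4722 nucleotides). For the short Igfbp6 (1112 nucleotides) it moved the other way, from -0.43 to -0.58.

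Thbs1 (chromosome 2, 118111876 to 118127133) and Timp1 (chromosome X, 20870166 to 20874737) were low in both groups. Thbs1 stood at 1.21 and 1.99 FPKM in the ECp53KO pair, versus 1.39 and 1.504 FPKM in the control pair, so both controls lay between the ECp53KO values. Its log2 fold change was 0.07 ± 0.26, with an interval of -0.59 to 0.73 (limma adjusted p = 0.969), and -0.15 without ECp53KO_172. Timp1 was listed at 0 and 0.959 FPKM in ECp53KO, versus 0.779 and 0.483 FPKM in Ctrl, about 7.6 to 9.6 fragments in the 3 libraries above 0. With no filter on low values its log2 fold change was -0.22 (limma adjusted p = 0.904), and a difference was not detectable at this depth.

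The receptor genes of thrombospondin-1, Cd36 (2402 to 3952 FPKM) and Cd47 (39.2 to 50.2 FPKM), stood far above Thbs1. Its relatives were low too, as Thbs2 stood at 0.931 to 1.62 FPKM, and Thbs3 and Thbs4 did not exceed 0.610 FPKM. Comp, a thrombospondin of cartilage and tendon, stood at 1.43 and 0.253 against 2.06 and 1.93 FPKM. Of the 4 genes of this list that were tested, 0 passed over all genes or at an unadjusted limma p under 0.05. Timp4 (592 and 519 FPKM in ECp53KO, 473 and 1074 FPKM in Ctrl) and Timp3 (314 and 410 against 352 and 507 FPKM) were the TIMP genes with the highest levels. Of 20 listed TIMP and metalloproteinase genes 14 were tested, with a median log2 fold change of -0.21. Of these, 12 had a negative fold change (48.3% of all tested genes had one, and 64.8% after rescaling to the same total). By limma 0 passed over all genes. At an unadjusted p under 0.05, 2 were lower, against 2.82% of all tested genes. These were the secreted proteases Adamts1 (141 ± 4.57 against 190 ± 11.7 FPKM) and Adamts4 (3.62 ± 1.17 against 7.69 ± 3.26 FPKM). Mmp2, a gelatinase, averaged 2.12 ± 0.685 against 3.47 ± 0.383 FPKM.

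**Figure D4:**
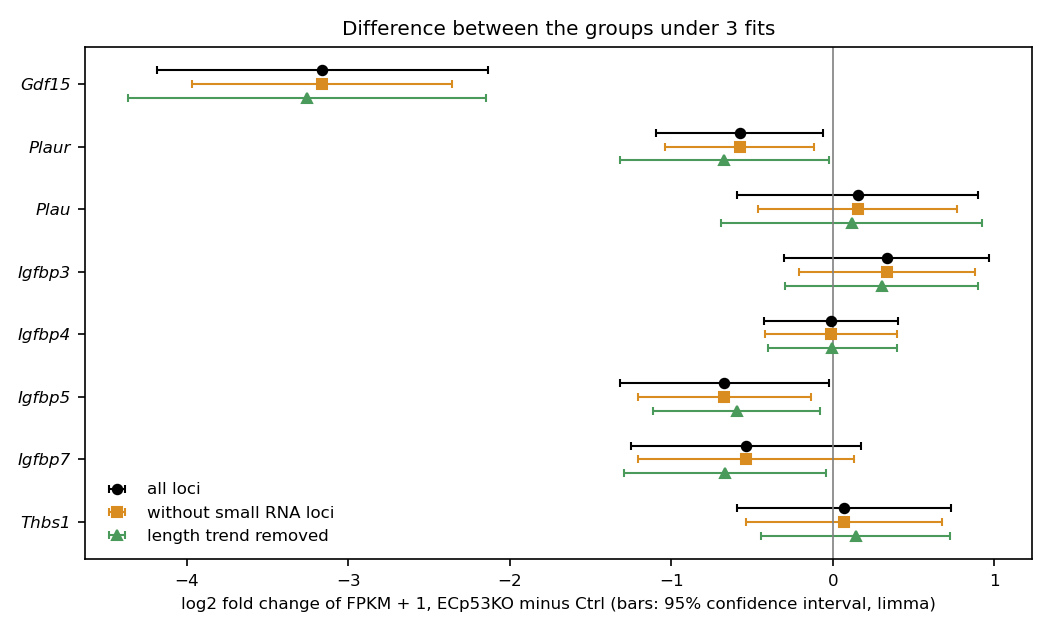
log2 fold change of FPKM + 1 (ECp53KO minus Ctrl) with 95% confidence intervals from limma for the 8 tested genes, with all loci, without small RNA loci, and with each library's trend against transcript length removed. Gdf15 lies near -3.2 in each, Plaur and Igfbp5 have intervals below 0 in all 3, and Igfbp7 has one only with the length trend removed.

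Transcript length and the mix of cells were measured beside Plaur, Igfbp5 and Igfbp7. In ECp53KO_170 the 2677 tested transcripts of at least 4589 nucleotides lay at a median of -0.13 from each gene's own mean of log2(FPKM + 1), and the 2679 of at most 1926 nucleotides at 0.22, against 0.04 to 0.06 and -0.09 to -0.04 in the other 3 libraries. Of the 8 genes Igfbp5 (6006 nucleotides) and Thbs1 (5848 nucleotides) are the longest and Igfbp7 (1200 nucleotides) the shortest. With the length trend removed, the log2 fold changes were -0.67 for Plaur, -0.60 for Igfbp5, -0.67 for Igfbp7 and -3.25 for Gdf15 (limma adjusted p = 0.801 for the first 3 and 0.339 for Gdf15). Endocardial genes, with Cytl1 and Cgnl1 the most abundant, summed to 47.1 and 55.4 FPKM in ECp53KO and to 63.3 and 82.2 FPKM in Ctrl. All 4 tested of 6 listed were lower without overlap, against 16.8% of all tested genes (22.3% after rescaling to the same total). None of the 6 was at 0. Pericyte and smooth muscle genes, led by Rgs5 and Tagln, went the other way, with sums of 163 and 135 FPKM in ECp53KO against 90.3 and 112 FPKM in Ctrl and none of the 10 at 0. All 9 tested had a positive fold change (median 0.36), where 48.3% of all tested genes had a negative one. Without overlap 3 were higher, against 19.1% of all tested genes (10.8% after rescaling to the same total). Acta2 (1.04) and Tagln (0.77) had an unadjusted limma p under 0.05, where 1.97% of all tested genes were higher. Lymphatic endothelial genes, led by Flt4 and Ccl21a, summed to 47.9 and 62.2 against 67.6 and 52.4 FPKM. Of the 4 tested Lyve1 alone (-0.60) had an unadjusted limma p under 0.05, where 2.82% of all tested genes were lower. The part of these cells and of the erythroid genes in the lower Plaur, Igfbp5 and Igfbp7 was not tested. Macrophage and leukocyte genes, led by Lyz2 and S100a8 and a possible source of Plaur, summed to 9.55 and 12.1 against 12.5 and 8.05 FPKM. Of the 9 genes of that list Ptprc, Adgre1 and Itgam were each at 0 in 1 ECp53KO library. Among the 4 tested, 2 had a negative and 2 a positive fold change. Cd68 was lower without overlap (0.702 and 0.307 against 4.31 and 1.08 FPKM), the only 1 of the 4, against 16.8% of all tested genes. The part of these cells in the lower Plaur was not tested. Platelet genes, led by Pf4 and Ppbp and a source of Thbs1 and Timp1, summed to 13.7 and 2.64 against 8.06 and 4.83 FPKM.

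Genes that respond to tissue dissociation, as Plaur and Thbs1 also can, were high in every library. Fos stood at 1092 and 1219 FPKM in the ECp53KO pair, versus 1058 and 1458 FPKM in the control pair, and Zfp36 at 644 and 1144 against 910 and 1202 FPKM. Of the 17 listed genes, all tested, 0 passed over all genes. Without overlap 6 were lower and 4 higher, against 16.8% and 19.1% of all tested genes. An unadjusted limma p under 0.05 was reached by Nr4a1 and Fosl2, both lower, as by 2.82% of all tested genes. Nr4a1, an orphan nuclear receptor, averaged 98.1 ± 32.7 against 189 ± 45.6 FPKM, and Fosl2, an AP-1 subunit, 13.8 ± 3.88 against 21.4 ± 1.52 FPKM (SD, n = 2 each). The part of this response in the lower Plaur was not tested.

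Other secreted factors of senescence were mostly at or near 0. Of 27 listed, 9 reached a mean of 1 FPKM, and 6 (Ccl20, Csf2, Csf3, Mmp10, Mmp12 and Mmp13) were listed at 0 in every library. By limma 0 passed over all genes. At an unadjusted p under 0.05 Stc1 was lower and Cxcl1 higher, against 2.82% and 1.97% of all tested genes. Cxcl1, a chemokine that attracts neutrophils, stood at 27.6 and 62.6 FPKM in ECp53KO, versus 22.5 and 17.5 FPKM in Ctrl (log2 fold change 1.03 ± 0.40, limma adjusted p = 0.864). Cxcl2 stood at 3.52 and 7.45 against 3.57 and 1.46 FPKM, and Il6 at 0.829 and 2.01 against 1.92 and 0.795 FPKM.

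The 9 p53 targets taken for comparison were each lower in ECp53KO without overlap, as were 16.8% of all tested genes, and the median log2 fold change of the 9 was -1.11. They were chosen with earlier results of these libraries known, so their count is no independent evidence of direction. Gdf15 at -3.16 lay below the range of these targets, whose most negative value was -2.28 in Phlda3. Plaur, Igfbp5 and Igfbp7 lay near the least negative of them, Mdm2 (-0.56) and Cdkn1a (-0.68), the gene of the cell cycle inhibitor p21. None of these 3 genes passed (limma adjusted p = 0.864 for each), so the nearness does not make them p53 targets. The difference between Gdf15 and the other targets was not tested.

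**Figure D5:**
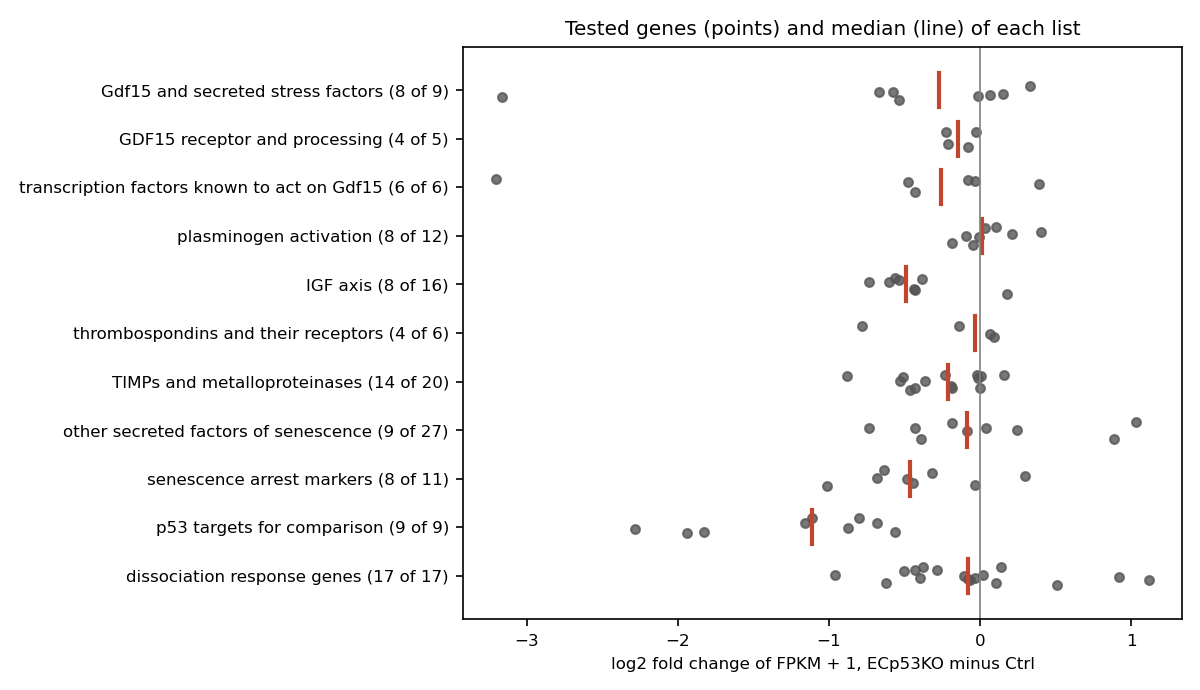
log2 fold change of FPKM + 1 (ECp53KO minus Ctrl) of each tested gene (points, spread vertically for legibility) and the median (red line) of the 9 genes, of each pathway list and of the dissociation list, marker lists of cell types left out, with the number tested of those listed. Gdf15 is the point near -3.2 in the top line and Trp53 the point near -3.2 in the line of factors that act on Gdf15, and the medians of the lists shown run from -1.11 for the p53 targets to 0.01 for plasminogen activation.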

How the data were processed

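RNA was sequenced from sorted heart endothelial cells of 2 genotypes, with 2 libraries each. Per the labels' protocols, libraries were made from polyadenylated RNA with a kit that does not keep strand, so reads of overlapping antisense genes cannot be told apart. The authors deposited FPKM values for 24346 genes, which are not counts. Per the submitters' processing notes, with no roles given, the build was mm10 and the tools were Cufflinks 2.2.1, TopHat2 2.1.0, Trimmomatic 0.36, FastQC 0.11.5 and bcl2fastq 2.17. The annotation was not given in the sources used here.

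From these values, log2(FPKM + 1) was fitted with limma 3.58.1 in R 4.3.3 (intensity trend, two-sided, Benjamini-Hochberg over 11332 genes averaging 1 FPKM or more, no covariate, 2 residual degrees of freedom plus 3.15 from the shared variance). The fit was tested on simulated data. An exact permutation test cannot go below 0.333 with 2 against 2 libraries and was not used. Gene names and positions came from RefSeq's GRCm38.p6 table (23143 symbols matched directly, 1099 by synonym, 104 not), transcript lengths from GENCODE on GRCm38. Alternatives were another pseudocount or filter, rescaled columns, robust shrinkage, small RNA loci left out, the length trend removed, a term for Xist status, and each library left out. Depth was estimated from 1037 low genes with 1 transcript, and fragment numbers are approximate.

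The genes and lists were chosen with earlier results of these data known. Named are the 9 genes, Trp53, from each pathway or technical list the 3 with the smallest p, the 2 with the highest level and, in lists of 6 or fewer, every gene, from each marker list the 2 with the highest level, and the 5 nearest to Gdf15. Genes named beyond this rule (Igfbp1, Igfbp2, Il6, the genes at 0, Mdm2, Ccng1, Cdkn2a, Cdkn2b, Lmnb1, Hmgb2, Hspa1b, Ptprc, Itgam, Adgre1, Cd68, Acta2, Lyve1, Rpl26 and Xist) were chosen after their values were seen.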

Additional observations from a re-analysis of the deposited data

How the results depend on the processing

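No paired analysis was possible because no library number occurs in both groups, but a term could be fitted for the presence of Xist RNA, which 1 library of each group held. The fits with a term for Xist status, and the one that removes the length trend and also leaves out small RNA loci, were chosen after seeing the data. Gdf15 kept its negative sign throughout and passed without small RNA loci (-3.16), with robust shrinkage (-3.16), with the length trend also removed (-3.25) and with the Xist term but no small RNA loci (-3.16), while with a pseudocount of 0.1 it stood at -5.51 (limma adjusted p = 0.392). On leaving out 1 library it ran from -3.69 to -2.64 and did not pass. With small RNA loci also left out it passed without ECp53KO_172 (limma adjusted p = 0.0362), Ctrl_178 (0.000805) and Ctrl_182 (5.38e-07) but not without ECp53KO_170 (0.065), the group left with 1 library being assumed to vary like the other. Hence 1 of the 8 genes was called lower in those fits and 0 in the others. Plaur, Igfbp5, Igfbp7 and Igfbp3 kept their signs in every fit and never passed. The sign turned on leaving out a library for Igfbp4 (range -0.14 to 0.12), Plau (-0.14 to 0.45) and Thbs1 (-0.15 to 0.29), with or without small RNA loci. Over all genes, 3 were higher and 10 lower. In their place 5 were higher with a pseudocount of 0.1, 5 with robust shrinkage, 1 with no filter and 9 with the Xist term but no small RNA loci, and 4 were lower without small RNA loci, 6 with the length trend removed and 4 with both. Leaving out 1 library gave 1 to 21 higher and 12 to 53 lower, and 5 to 12 and 4 to 18 without small RNA loci. The causes were not tested. On leaving out a library, 4 to 5 of the 8 tested genes were lower and 1 to 2 higher without overlap, Timp1 not being counted. With all loci, 29.3% to 35.8% of all tested genes were then lower and 32.7% to 42.5% higher. The smallest numbers of fragments, in Timp1, Gdf15 and Thbs1, limit what can be seen for low genes.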

Other observations

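The cell cycle inhibitor gene Cdkn2b (p15) stood at 1.57 and 1.49 FPKM in the ECp53KO pair, versus 0.356 and 0.555 FPKM in the control pair, in the opposite direction to Cdkn1a (353 and 387 against 528 and 668 FPKM). It missed the filter narrowly, at a mean of 0.995 FPKM, was not tested, and was picked after its values were seen. Of the 11 arrest markers of senescence that were listed, 8 were tested. Of these, 7 had a negative fold change (48.3% of all tested genes had one, and 64.8% after rescaling to the same total). The list holds markers that rise and markers that fall in senescence, so this count has no direction of senescence. Without overlap 6 were lower and 1 higher, against 16.8% and 19.1% of all tested genes. Among the lower were Lmnb1 (4.69 and 4.71 against 12.0 and 5.02 FPKM) and Hmgb2 (35.5 and 24.2 against 37.4 and 36.2 FPKM). Cdkn1a, Glb1 and Hmga1 were below an unadjusted limma p of 0.05, all lower, against 2.82% of all tested genes, with 0 past adjustment. Glb1, the lysosomal enzyme read by the senescence stain, averaged 9.49 ± 0.495 FPKM in ECp53KO and 13.7 ± 0.299 FPKM in Ctrl (SD, n = 2 each). Hmgb1, a chromatin protein, stood at 209 and 173 against 145 and 165 FPKM. Cdkn2a, a classic senescence marker, did not exceed 0.512 FPKM.

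The inducible heat shock genes Hspa1a (263 and 297 FPKM in ECp53KO, 205 and 79.8 FPKM in Ctrl) and Hspa1b (275 and 328 against 259 and 97.0 FPKM) were higher in ECp53KO without overlap, with Ctrl_182 the lowest in both. Over all tested genes 19.1% were higher without overlap. Both belong to the 17 dissociation genes, of which 6 were lower and 4 higher without overlap. These near-identical copies can share reads, so their split is uncertain.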
